A study of Mus musculus with 16 samples.

Results

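The genes described here are 10 transcription factors that direct early T cell development: Tcf7, Lef1, Gata3, Bcl11b, Runx1, Tcf12, Tcf3, Ikzf1, Ets1 and Myb. They were chosen by name, and all 10 were found among the 12012 genes of the deposited table. The cells came from C57BL/6 mice that had received secondary transplants of a T cell leukaemia (T-ALL) with NOTCH-delta E, an activated Notch receptor common to all groups. For 3 weeks the mice received 0, 0.4, 0.8 or 8 g/kg valine, the last being the control diet. These doses follow the sample characteristics, although the protocol text places the intermediate amounts in the drinking water. Leukaemic cells were sorted from spleen by GFP, and both total RNA and the mRNA pieces covered by ribosomes (ribosome-protected fragments, RPF) were sequenced. T-ALL 3 and T-ALL 2 each gave 1 library per diet and fraction, 16 in all. Whether these numbers mark tumours or recipient mice is not in the labels, so the p-values reflect the spread of these samples alone. The sources used here do not give age, sex or the promoter behind NOTCH-delta E. The study asked whether dietary valine changes ribosome occupancy as a measure of translation.

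T cell precursors acquire their identity through a short cascade of DNA-binding proteins. Notch signals induce Tcf7 and Gata3, these help to switch on Bcl11b, and Bcl11b closes off other blood cell fates. Runx1, the E proteins, Ikzf1, Ets1 and Myb act alongside them on the genes of the T cell receptor and its signalling chain. Several of the same genes are altered in T-ALL or needed by its cells.

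Values are FPKM, counted fragments divided by the length of the gene and the size of the library. The length used is not stated, and RPF covers mainly coding sequence. Levels of different genes, above all in RPF, are therefore compared only as a description. Every value above 0 was a whole multiple of 1 read, which gave 41848 to 205545 recovered reads in the RPF libraries and 364685 to 1269364 in the total RNA libraries. The 10 genes together took 46.2 to 58.4 of every 10000 RPF reads and 45.0 to 52.1 of every 10000 total RNA reads. Of the T cell markers, 7 of 7 were measured, and their summed share was 23.9 to 34.4 per 10000 RPF reads and 30.2 to 41.0 per 10000 total RNA reads. Neutrophil markers (9 of 9 measured) stood at 3.03 and 24.8 per 10000 RPF reads in T-ALL 3 and T-ALL 2 at 0 g/kg, against 0.420 and 0.239 at 8 g/kg. In total RNA they stood at 2.10 and 4.40 per 10000 at 0 g/kg, against 0.130 and 0.158 at 8 g/kg. Erythroid markers (8 of 8 measured) ran the other way in total RNA, with 0.280 and 0.184 per 10000 at 0 g/kg, against 4.10 and 1.66 at 8 g/kg. In RPF the erythroid share was 2.53 and 0.498 per 10000 at 0 g/kg, against 17.2 and 4.54 at 8 g/kg. Markers of B cells (4 of 8 measured), macrophages (8 of 8) and natural killer cells (4 of 6) reached at most 1.49, 3.64 and 5.30 per 10000 RPF reads and 0.794, 0.241 and 6.81 per 10000 total RNA reads. The part of these cell types in the values below was not tested, and in bulk samples fewer cells of a type and less RNA per cell cannot be told apart.

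The regions around the start sites are printed for the genes whose RPF level stood above their total RNA level in every pair of libraries, Runx1, Bcl11b and Gata3. Each is a RefSeq window of 300 bases on the minus strand of GRCm38.p6, from 250 bases before to 50 bases after an annotated start, written 5′ to 3′ along the gene. Capitals mark exact matches to a core motif that a protein of this group binds, on either strand: TCF/LEF factors by CTTTGA, the GATA family by AGATAA, the RUNX family by TGTGGT, the ETS family by CCGGAA, E proteins by CAGCTG and Ikaros by TGGGAA. Runx1 has a pair of promoters that give transcripts with different leaders, and the deposited table holds 1 value for the gene, so reads from both starts are combined. Runx1 spans chr16:92601466-92826074, Bcl11b chr12:107910403-108004145 and Gata3 chr2:9857078-9887953. The first Runx1 window is chr16:92826025-92826324, the second is chr16:92697280-92697579, Bcl11b is chr12:108003365-108003664 and Gata3 is chr2:9878551-9878850. The Bcl11b and Gata3 windows lie inside the spans of their genes, so the upstream end of either span is not printed.
Runx1, first start: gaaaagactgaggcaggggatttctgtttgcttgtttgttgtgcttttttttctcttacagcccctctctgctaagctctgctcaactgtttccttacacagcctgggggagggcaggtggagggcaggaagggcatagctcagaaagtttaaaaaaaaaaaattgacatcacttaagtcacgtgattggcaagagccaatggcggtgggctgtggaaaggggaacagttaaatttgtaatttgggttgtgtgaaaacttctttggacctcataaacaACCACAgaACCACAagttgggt
Runx1, second start: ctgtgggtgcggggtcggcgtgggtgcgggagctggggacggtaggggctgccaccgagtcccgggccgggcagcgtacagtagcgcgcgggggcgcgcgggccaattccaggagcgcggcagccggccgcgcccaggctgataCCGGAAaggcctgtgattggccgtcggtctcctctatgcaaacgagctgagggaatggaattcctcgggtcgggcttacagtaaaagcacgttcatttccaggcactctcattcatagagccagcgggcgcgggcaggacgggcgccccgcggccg
Bcl11b: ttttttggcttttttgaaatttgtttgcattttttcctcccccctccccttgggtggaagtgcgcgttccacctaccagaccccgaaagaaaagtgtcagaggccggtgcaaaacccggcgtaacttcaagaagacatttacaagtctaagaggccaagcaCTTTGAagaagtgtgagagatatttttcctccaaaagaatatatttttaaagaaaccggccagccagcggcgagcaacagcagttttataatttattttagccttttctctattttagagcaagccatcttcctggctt
Gata3: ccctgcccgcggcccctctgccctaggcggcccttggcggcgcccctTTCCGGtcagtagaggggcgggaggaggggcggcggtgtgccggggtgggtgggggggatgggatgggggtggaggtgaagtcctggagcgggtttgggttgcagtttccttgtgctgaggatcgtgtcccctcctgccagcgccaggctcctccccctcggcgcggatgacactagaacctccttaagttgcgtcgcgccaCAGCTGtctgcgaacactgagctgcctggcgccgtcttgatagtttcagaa
The first Runx1 window held RUNX matches at 28 and 36 bases after the start, both as the reverse complement ACCACA, while the second held an ETS match. Bcl11b held a TCF/LEF match, and Gata3 held an ETS and an E protein match. Such matches are common. The RUNX letters occur in 16.8% of 32851 RefSeq promoter windows, the ETS letters in 14.9%, the TCF/LEF letters in 16.003% and the E protein letters in 16.3%. Windows were found for 9 of the 10 genes, 17 windows in all, and 12 of these held at least 1 of the 6 motifs. Overlapping Lef1 windows among them hold the same Ikaros match. How many of all RefSeq windows hold at least 1 of the 6 was not counted, so this number has no background to compare with. A match is a description of the letters and not a binding site.

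The genes were ordered by level over the 8 total RNA libraries, as a description. Tcf7, which encodes the HMG-box factor TCF-1, was the highest at 376 ± 32.6 FPKM (SD, n = 8), above 98.4% of the 12012 genes. Lef1, its close relative and likewise a partner of beta-catenin, followed at 212 ± 17.0 FPKM. The lowest Tcf7 library, at 304 FPKM, lay above the highest Lef1 library, at 236 FPKM. Myb, a factor of proliferating blood progenitors, averaged 169 ± 24.8 FPKM, Ikzf1, the zinc finger protein Ikaros, 164 ± 16.9 FPKM, and Ets1, a factor for T cell receptor genes, 151 ± 21.6 FPKM. These neighbours overlapped in range with each other, and Lef1 overlapped with Myb. Gata3, a zinc finger factor needed for T cell commitment, averaged 86.4 ± 13.1 FPKM, below every Ets1 library. Tcf12 and Tcf3 encode the E proteins HEB and E2A, basic helix-loop-helix factors that open the T cell receptor loci. Tcf12 averaged 60.7 ± 6.36 FPKM and Tcf3 26.5 ± 4.60 FPKM. Bcl11b, a zinc finger repressor that locks in T cell fate, stood between them at 48.6 ± 4.21 FPKM, with all its libraries above all those of Tcf3. Runx1, the DNA-binding partner of Cbfb, was lowest at 19.2 ± 4.61 FPKM, and its range overlapped with that of Tcf3.

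Below the first pair the order differed in the RPF libraries. Tcf7 averaged 242 ± 46.6 FPKM (SD, n = 8) and Lef1 179 ± 33.7 FPKM. Gata3 came next at 145 ± 34.5 FPKM, ahead of Ets1 at 141 ± 35.6 FPKM, Myb at 120 ± 22.8 FPKM and Ikzf1 at 116 ± 19.7 FPKM. Bcl11b followed at 83.1 ± 13.3 FPKM, Tcf12 at 53.4 ± 21.3 FPKM, Runx1 at 44.5 ± 11.5 FPKM and Tcf3 at 34.1 ± 17.1 FPKM. All neighbours in this order overlapped in range, and the coding share of each gene's counted length enters the order. RPF reads per gene and library ran to 208 for Ets1 at most and to 3 for Tcf12 at least, so the RPF values carry more counting error than total RNA, where the fewest reads were 18, for Tcf3.

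**Figure D1:**
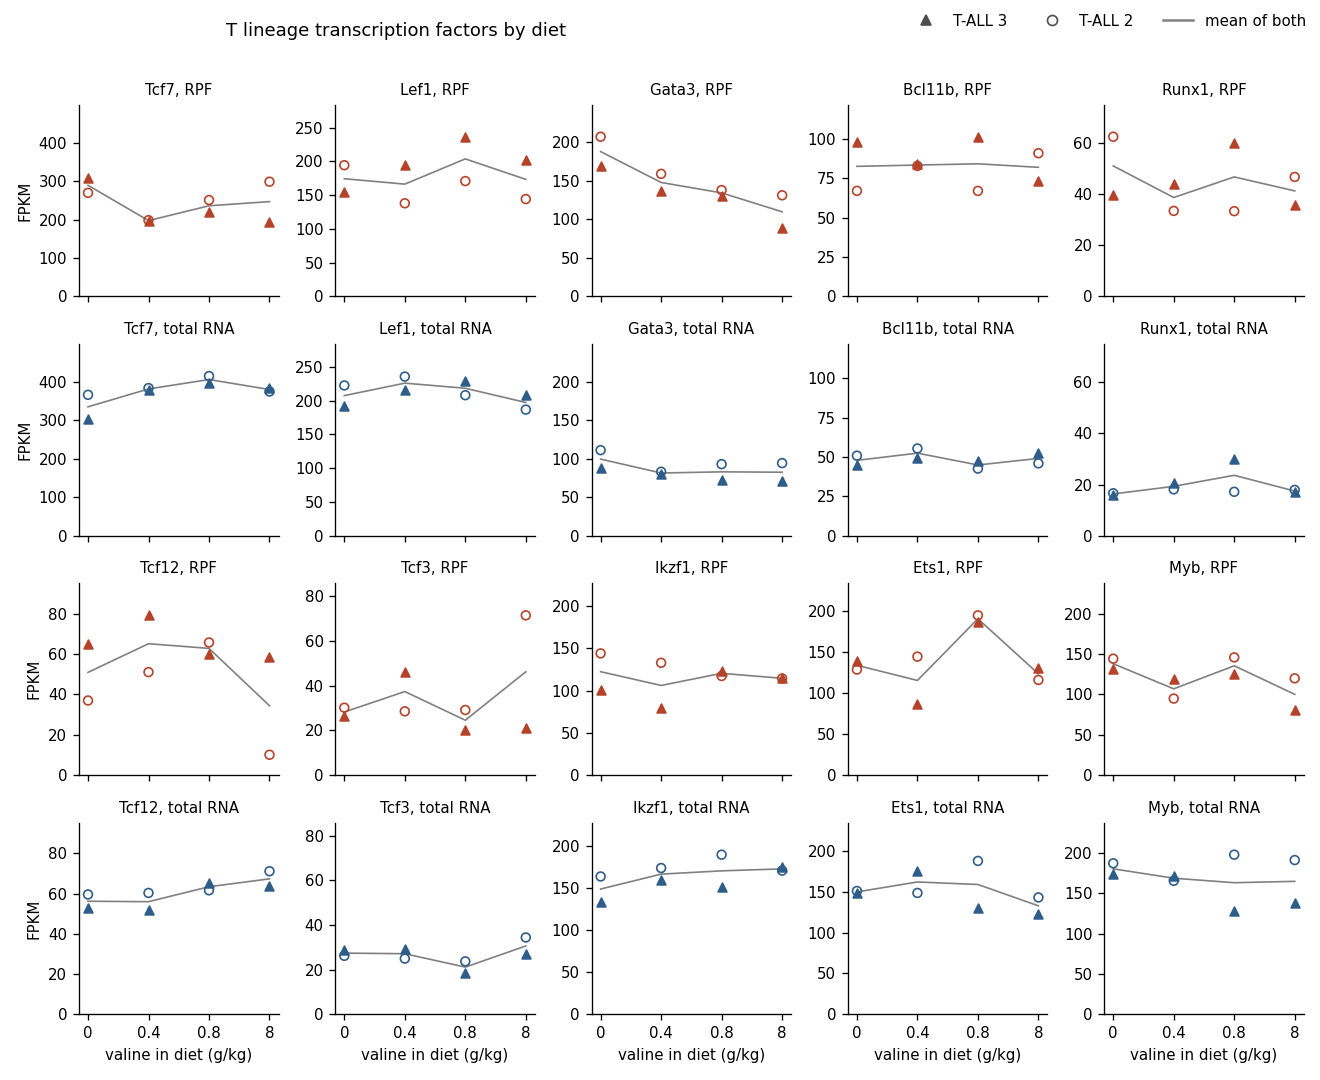
FPKM (vertical axes, starting at 0) of the 10 genes against valine in the diet (horizontal axes, g/kg), with RPF in rows 1 and 3 and total RNA in rows 2 and 4. Filled triangles are T-ALL 3, open circles T-ALL 2, and lines join the means of both. Gata3 RPF has its highest libraries at 0 g/kg, and Tcf12 RPF has 1 library at 10.04 FPKM at 8 g/kg.

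Ribosome occupancy relative to mRNA was compared for all genes over 8 pairs of libraries, each pair from 1 diet and 1 T-ALL. Of the 10 factors, 3 passed as higher in RPF relative to total RNA, namely Runx1, Bcl11b and Gata3, and none passed as lower. Each difference of log2(FPKM + 0.5) was centred on the median of the tested genes in its pair, and the mean over 8 pairs was tested against 0 with limma. Over 9361 tested genes, 9.99% passed as higher and 5.74% as lower at a Benjamini-Hochberg adjusted p of 0.05. The mean centred difference over the 8 pairs had a median of -0.26 over all tested genes and of 0.14 over the 10 factors. It was above 0 for 39.1% of all tested genes, so the tested 0 lies above the median gene of this mean.

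Runx1 stood furthest out. Its RPF level was 39.6 and 62.5 FPKM on 0 g/kg in T-ALL 3 and T-ALL 2, 43.9 and 33.5 on 0.4 g/kg, 60.2 and 33.4 on 0.8 g/kg, and 35.8 and 46.8 on 8 g/kg. Its total RNA level was 16.04 and 16.6 FPKM on 0 g/kg, 20.5 and 18.1 on 0.4 g/kg, 30.1 and 17.2 on 0.8 g/kg, and 17.0 and 17.9 on 8 g/kg. The lowest RPF library thus lay above the highest total RNA library, and the ratio of RPF to total RNA FPKM was 1.85 to 3.77 over the 8 pairs. The centred log2 difference was 1.52 ± 0.17 (SE, 8 pairs, limma adjusted p = 0.00064), higher than for 98.6% of the tested genes. These RPF values rest on 13 to 42 reads a library. T-ALL 3 at 0.8 g/kg, the highest in total RNA, was among the highest in RPF as well.

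Bcl11b RPF stood at 98.2 and 67.1 FPKM on 0 g/kg in T-ALL 3 and T-ALL 2, 84.0 and 82.9 on 0.4 g/kg, 101 and 67.0 on 0.8 g/kg, and 73.0 and 91.0 on 8 g/kg. In total RNA it stood at 44.9 and 50.8 FPKM on 0 g/kg, 49.5 and 55.4 on 0.4 g/kg, 47.2 and 42.6 on 0.8 g/kg, and 52.2 and 45.9 on 8 g/kg. Here too no RPF library fell within the total RNA range. The ratio was 1.32 to 2.19 over the 8 pairs, and the centred log2 difference was 1.09 ± 0.15 (SE, limma adjusted p = 0.00193), higher than for 95% of the tested genes.

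Gata3 RPF stood at 169 and 207 FPKM on 0 g/kg in T-ALL 3 and T-ALL 2, 137 and 159 on 0.4 g/kg, 131 and 138 on 0.8 g/kg, and 88.3 and 131 on 8 g/kg. In total RNA it stood at 87.7 and 111 FPKM on 0 g/kg, 79.7 and 82.9 on 0.4 g/kg, 72.8 and 92.8 on 0.8 g/kg, and 70.5 and 94.1 on 8 g/kg. The fractions overlapped across libraries, but within a pair RPF was higher in 8 of 8, with ratios of 1.25 to 1.92. The centred log2 difference was 1.05 ± 0.14 (SE, limma adjusted p = 0.00149), higher than for 94.3% of the tested genes.

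The other 7 factors did not pass. Tcf3 came closest among them, with a centred log2 difference of 0.59 ± 0.21 (SE, limma adjusted p = 0.086) and a ratio above 1 in 6 of 8 pairs. Ets1 had 0.21 ± 0.18, Lef1 0.07 ± 0.19, Tcf12 -0.03 ± 0.34, Myb -0.17 ± 0.19, Ikzf1 -0.18 ± 0.20 and Tcf7 -0.32 ± 0.23 (SE), with limma adjusted p of 0.36 to 0.96. For Ikzf1 and Myb the uncentred ratio was below 1 in all 8 pairs, at 0.499 to 0.882 for Ikzf1 and 0.572 to 0.974 for Myb. The median gene was below 0 on the uncentred log2 scale in all 8 pairs as well, at -0.56 to -0.15. The centred values of Ikzf1 and Myb were higher than for 53.4% and 53.7% of the tested genes. Tcf7 had the most mRNA of the group, and its ratio was 0.505 to 1.01. With TMM scaling and voom weights on the recovered reads, Tcf7, Ikzf1 and Myb passed as lower, at -0.63 (adjusted p = 0.000123), -0.47 (adjusted p = 0.00492) and -0.45 (adjusted p = 0.0150), and Lef1 and Ets1 changed sign. More genes passed in that fit, 2618 of 9361 against 1472 in the main fit. Of the 2618, 48.3% were higher and the rest lower, where 63.5% were higher in the main fit. The zeros of these fits differ, with an all-gene median of 0 in the voom fit and of -0.26 in the main fit. The part of that shift in the calls and signs was not tested. Ribosomes protect mainly coding sequence while total RNA covers whole transcripts, so the coding share of each gene's counted length enters these ratios, and its part was not tested.

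**Figure D2:**
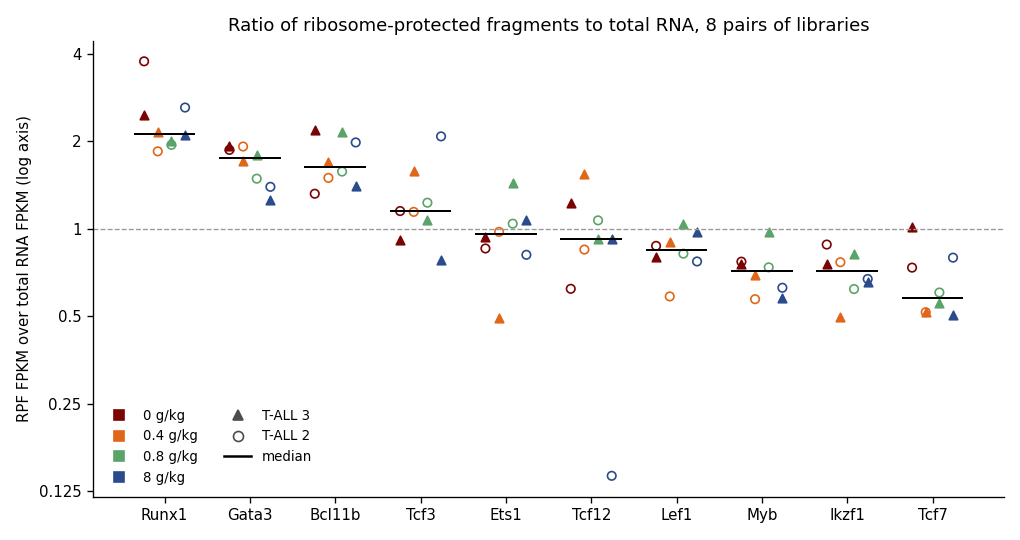
Ratio of RPF FPKM to total RNA FPKM (vertical log axis) for the 10 genes (horizontal axis) in the 8 pairs of libraries, not centred. Colours are diets, filled triangles T-ALL 3, open circles T-ALL 2 and black bars medians over the 8 pairs. Runx1, Gata3 and Bcl11b lie above 1 in every pair, and Tcf12 has 1 pair at 0.141.

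**Figure D3:**
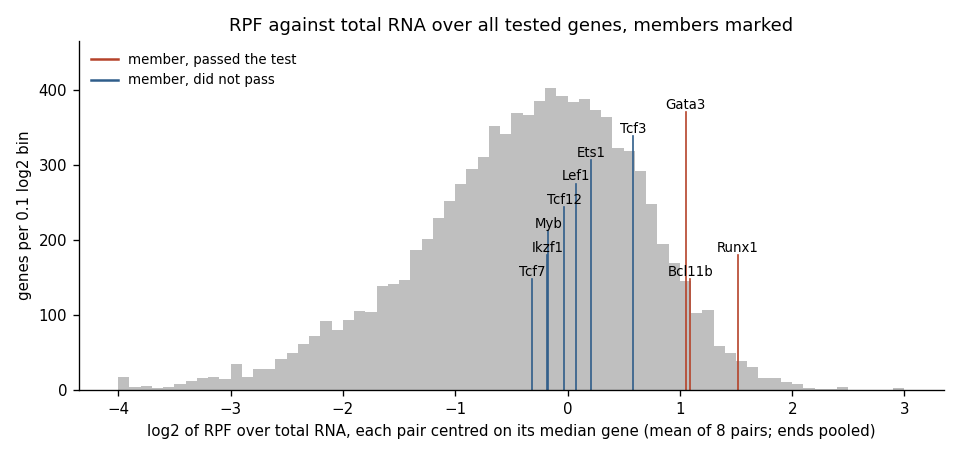
Number of genes (vertical axis, per bin) by centred log2 of RPF over total RNA (horizontal axis, mean of 8 pairs) for all 9361 tested genes, with values beyond the ends pooled in the end bins. Red lines mark the 3 factors that passed the test and blue lines the other 7. Runx1 stands at 1.52, in the upper tail.

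Cofactors and other factors of the same pathway were described from lists. Of 19 tested T cell and Notch pathway transcription factors outside the group, 7 passed as higher and none as lower, where 9.99% of all 9361 tested genes were higher and 5.74% lower. Their median was 0.60, beside -0.26 over all tested genes. They included Notch1 at 1.45 ± 0.14 (SE, limma adjusted p = 0.000367) and Klf2, a factor for T cell quiescence and trafficking, at 1.25 ± 0.25 (adjusted p = 0.00973). All cells carried NOTCH-delta E, and whether its reads were counted as Notch1 is not known. Its part in the Notch1 values was not tested. Of 21 cofactors and inhibitors, 5 were higher and 1 lower, with a median of -0.04. Chd4, the remodelling subunit of the NuRD complex that Ikaros recruits, had 1.48 ± 0.16 (SE, limma adjusted p = 0.000597). Id3, which blocks E proteins from binding DNA, had 1.39 ± 0.23 (adjusted p = 0.00425). Of 13 paralogues, 1 was higher, Ets2 at 1.27 ± 0.23 (SE, limma adjusted p = 0.00575), and 1 was lower, Ikzf5 at -2.33 ± 0.67 (adjusted p = 0.0419). Of 23 T cell target genes, Cd2, an adhesion receptor, was higher at 0.82 ± 0.16 (SE, limma adjusted p = 0.0081), and Cd3g, a chain of the T cell receptor complex, was lower at -0.92 ± 0.27 (adjusted p = 0.0457). Of 8 tested cell cycle genes linked to Myb, Top2a, a topoisomerase, was higher at 1.12 ± 0.19 (SE, limma adjusted p = 0.00482). The 1 higher gene of 13 paralogues, of 23 targets and of 8 cell cycle genes is near or below that 9.99% of all genes. Ikzf5 lost its call when any of 6 pairs was left out or when diet was a term, and Cd3g when any of the 8 pairs was left out, with a pseudocount of 0.1 or when diet was a term.

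Removal of valine was compared with the control diet first in total RNA. No factor passed at 0 against 8 g/kg, with limma adjusted p of 0.87 to 0.99, and all 10 intervals of 95% lay within a change of 1 on the log2 scale in either direction. The background was 0% of 10054 genes called, with 662 at an unadjusted p under 0.05, of which none was a member. The median log2 change was -0.07 over the 10 factors and -0.04 over all tested genes.

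Among the factors that open the programme, Tcf7 total RNA was 304 and 367 FPKM at 0 g/kg in T-ALL 3 and T-ALL 2, against 386 and 376 FPKM at 8 g/kg. The groups did not overlap, and the log2 change was -0.19 ± 0.13 (SE, limma adjusted p = 0.87). It was -0.05 without T-ALL 3 at 0 g/kg and -0.32 without T-ALL 2 at 0 g/kg. Lef1 was 192.5 and 223 FPKM at 0 g/kg, against 208 and 187 FPKM at 8 g/kg, a log2 change of 0.07 ± 0.14. Gata3 changed by 0.27 ± 0.21 and Bcl11b by -0.04 ± 0.18, with groups that overlapped.

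Among the cofactors of the programme, Runx1 total RNA changed by -0.09 ± 0.29 on the log2 scale (SE). Tcf12 was 52.8 and 59.6 FPKM at 0 g/kg in T-ALL 3 and T-ALL 2, against 63.5 and 71.1 FPKM at 8 g/kg, a log2 change of -0.26 ± 0.17 (SE). Ikzf1 was 134 and 163 FPKM at 0 g/kg, against 174 and 170 FPKM at 8 g/kg, a log2 change of -0.22 ± 0.16. Ets1 was 149 and 151 FPKM at 0 g/kg, against 122 and 143 FPKM at 8 g/kg, a log2 change of 0.18 ± 0.20. Tcf3 changed by -0.15 ± 0.24 and Myb by 0.15 ± 0.23. Groups that did not overlap were found for Ets1 as higher, against 16.1% of all tested genes, and for Tcf7, Runx1, Tcf12 and Ikzf1 as lower, against 20.3%. An exact two-sided permutation test of 2 against 2 libraries cannot give a p below 0.333, so none was run.

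Ribosome-protected fragments of the factors were compared in the same way. No factor passed at 0 against 8 g/kg, with limma adjusted p of 0.69 to 1, and 0% of 9718 genes were called, with 697 at an unadjusted p under 0.05. The intervals of 5 of the 10 factors lay within a change of 1 on the log2 scale. The median log2 change was 0.19 over the factors and 0.12 over all tested genes. Of the 10 estimates 8 were above 0, and 5 were above 0 once each library was centred on its median gene.

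Gata3 had the smallest unadjusted p of the 10. Its RPF level was 169 and 207 FPKM at 0 g/kg in T-ALL 3 and T-ALL 2, against 88.3 and 131 FPKM at 8 g/kg, on 49 and 60 reads against 23 and 20 reads. The groups did not overlap, as was so for 16.7% of all tested genes on the higher side. The log2 change was 0.79 ± 0.33 (SE, limma adjusted p = 0.69), with a 95% interval of 0.02 to 1.57. Without T-ALL 2 at 0 g/kg, the RPF library with the most neutrophil marker reads, it was 0.64 ± 0.35, and without T-ALL 3 at 8 g/kg 0.51 ± 0.30. Over all left-out libraries the log2 change was 0.51 to 1.08. It was 0.64 ± 0.34 after median centring (adjusted p = 0.82), 0.57 ± 0.37 at equal RPF depth (adjusted p = 0.86) and 0.81 ± 0.46 with voom (adjusted p = 0.97). The 95% interval included 0 after median centring, at equal RPF depth and with voom. Gata3 RPF means over the 2 libraries were 188 ± 27.3 FPKM on 0 g/kg, 148 ± 15.8 on 0.4 g/kg, 134 ± 5.17 on 0.8 g/kg and 109.7 ± 30.3 on 8 g/kg (SD).

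Myb was the other factor with separate groups, at 132 and 144 FPKM RPF on 0 g/kg in T-ALL 3 and T-ALL 2, against 80.2 and 120 FPKM on 8 g/kg. Its log2 change was 0.49 ± 0.34 (SE, limma adjusted p = 0.82). Tcf12 had the largest estimate, 0.99 ± 0.78 (SE, adjusted p = 0.82). That estimate rested on 1 control library, since T-ALL 2 at 8 g/kg had 3 reads of Tcf12, or 0.717 per 10000 reads (95% Wilson interval 0.244 to 2.11), and 10.04 FPKM. The other 7 RPF libraries had 21 to 87 reads. Without that library the log2 change of Tcf12 was -0.26 ± 0.50 (adjusted p = 0.93), and without T-ALL 3 at 8 g/kg it was 2.23 ± 0.51 (adjusted p = 0.19).

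Tcf3 was high in the same T-ALL 2 control library, with 10 reads and 71.5 FPKM, while its other 7 RPF libraries had 19.9 to 46.2 FPKM. Its log2 change was -0.46 ± 0.66 (SE), and 0.42 ± 0.52 without that library. Runx1 had 0.28 ± 0.49, Tcf7 0.26 ± 0.31, Ets1 0.12 ± 0.35, Ikzf1 0.07 ± 0.37, Lef1 0.02 ± 0.36 and Bcl11b -0.01 ± 0.39 as log2 RPF change (SE). After centring each library on its median gene, Lef1, Ikzf1 and Ets1 stood at -0.14, -0.08 and -0.04.

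The change in translational efficiency, RPF minus total RNA on the log2 scale within pairs, was then set between 0 and 8 g/kg. No factor passed, with limma adjusted p of 0.89 to 0.999, and 0% of 9361 genes were called, with 616 at an unadjusted p under 0.05. The intervals were wide, and 0 of the 10 lay within a change of 1. Gata3 had 0.52 ± 0.42, with ratios of RPF to total RNA of 1.92 and 1.87 at 0 g/kg in T-ALL 3 and T-ALL 2, against 1.25 and 1.39 at 8 g/kg. Gata3, Ikzf1 and Myb had higher groups that did not overlap, as had 19.8% of all tested genes. The log2 changes were 0.34 ± 0.63 for Myb, 0.29 ± 0.65 for Ikzf1, 0.37 ± 0.43 for Runx1, 0.45 ± 0.70 for Tcf7 and 1.25 ± 0.98 for Tcf12 (SE). They were 0.03 ± 0.49 for Bcl11b, -0.05 ± 0.59 for Lef1, -0.06 ± 0.61 for Ets1 and -0.31 ± 0.61 for Tcf3. The median was 0.32 over the factors and 0.20 over all tested genes.

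**Figure D4:**
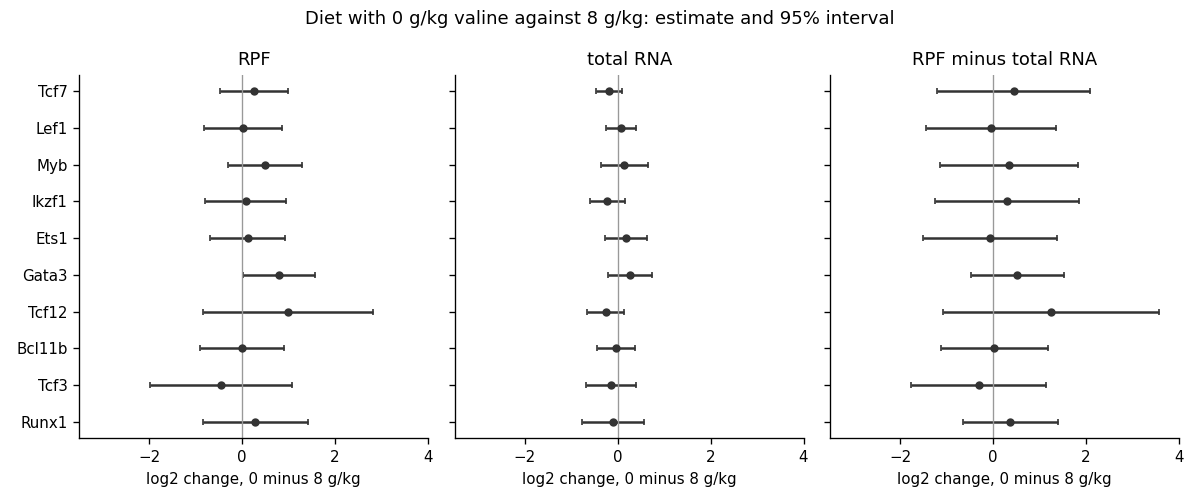
Log2 change between 0 and 8 g/kg valine (horizontal axes) for the 10 genes (rows, by total RNA level) in RPF, total RNA and their within-pair difference. Points are estimates and bars 95% intervals from limma. Total RNA intervals all lie within 1 of 0, and those of the within-pair difference all reach past 1.

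The intermediate diets were compared with the same 2 control libraries per fraction, so the 3 comparisons are not independent. No factor passed at 0.4 or 0.8 g/kg. In total RNA the limma adjusted p was 1 for all 10 factors at both doses, and 0% of 10054 genes were called, with 311 at 0.4 g/kg and 347 at 0.8 g/kg at an unadjusted p under 0.05. Intervals lay within a change of 1 for 10 of 10 factors at 0.4 g/kg and for 8 of 10 at 0.8 g/kg. In RPF the adjusted p was 0.81 to 1 at 0.4 g/kg and 0.93 to 1 at 0.8 g/kg, and 0% of 9718 genes were called, with 648 and 542 at an unadjusted p under 0.05. For translational efficiency the adjusted p was 0.85 to 0.997 at 0.4 g/kg and 0.89 to 0.998 at 0.8 g/kg. One test over all 4 diets called 0% of genes in either fraction, with adjusted p for the factors of 0.98 to 0.996 in total RNA and 0.92 to 1 in RPF.

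Ets1 RPF was highest at 0.8 g/kg, with 187 and 195 FPKM in T-ALL 3 and T-ALL 2. At the other doses it was 86.5 to 145 FPKM. The log2 change of Ets1 RPF at 0.8 against 8 g/kg was 0.63 ± 0.35 (SE, limma adjusted p = 0.93). In that comparison the median over all tested genes was 0.30, and 62.4% of them were higher. Ets1 total RNA at 0.8 g/kg was 130 and 188 FPKM, which spanned most of its range of 122 to 188 FPKM.

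The spread of the factors was described over all 8 libraries of a fraction. In total RNA the SD of log2 values was 0.12 for Lef1 and Bcl11b to 0.29 for Runx1, with a median of 0.18, where the median of 3339 tested genes within the factors' range of levels was 0.25. In RPF the SD was 0.23 to 0.93 with a median of 0.32, where 1633 genes within the factors' range had a median of 0.55. Within these ranges the genes were not matched to the factors in level, and the part of level was not tested. For the 3 factors that varied most in total RNA, the genes with the nearest centred log2 profile over the 8 libraries were taken from 5529 genes. Runx1 lay nearest to Rlf and Ndufa1, at root mean square distances of 0.11 and 0.12. Tcf3 lay nearest to Ythdc1 and Rbm8a, at 0.09 each, and Myb to Coro7 and Celsr1, at 0.06 and 0.07. Within the group the nearest profiles were Tcf7 and Ikzf1, at a distance of 0.08, and the most distant were Runx1 and Tcf3, at 0.46.

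T-ALL 3 was compared with T-ALL 2 with diet as a term. No factor passed, with limma adjusted p of 0.64 to 0.996 in total RNA and 0.82 to 0.99 in RPF. The background was 0% of genes in both fractions, with 756 in total RNA and 525 in RPF at an unadjusted p under 0.05. Gata3 total RNA was 70.5 to 87.7 FPKM in T-ALL 3, against 82.9 to 111 FPKM in T-ALL 2, a log2 difference of -0.29 ± 0.12 (SE, limma adjusted p = 0.64). Myb total RNA was 128 to 174 FPKM in T-ALL 3, against 166 to 198 FPKM in T-ALL 2, a log2 difference of -0.29 ± 0.13 (SE, adjusted p = 0.68). Within each diet Gata3 was lower in T-ALL 3 in both fractions.

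Partners of the factors were set beside them. None of the genes on the 5 lists of cofactors, paralogues, other T cell factors, T cell targets and cell cycle genes passed in any diet or T-ALL comparison, and their lowest limma adjusted p values were 0.36, 0.60, 0.27, 0.40 and 0.66. Cbfb, the subunit that stabilises Runx1 on DNA, averaged 41.1 FPKM of total RNA at 0 g/kg, against 30.3 FPKM at 8 g/kg. Ctnnb1, the beta-catenin that Tcf7 and Lef1 bind, averaged 84.3 FPKM at 0 g/kg, against 112 FPKM at 8 g/kg. Id3 RPF averaged 117 FPKM at 0 g/kg, against 312 FPKM at 8 g/kg, a log2 change of -1.22 ± 0.56 (SE, limma adjusted p = 0.75). That control mean rests largely on the T-ALL 2 library, the shallowest in RPF, at 478 FPKM. In T-ALL 3 Id3 RPF ranged over 86.5 to 201 FPKM across the diets. Id3 total RNA averaged 69.3 FPKM at 0 g/kg, against 90.7 FPKM at 8 g/kg. Id2, another inhibitor of E proteins, ranged over 14.5 to 35.9 FPKM in total RNA. Tal1 and Lyl1 encode helix-loop-helix factors that pair with E proteins in other forms of T-ALL, and they had at most 0.615 and 1.72 FPKM of total RNA in any library. Their RPF ranged over 0 to 5.86 FPKM for Tal1 and 0 to 23.4 FPKM for Lyl1.

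Genes that these factors act on were set beside them as levels. Rag1, the recombinase of the T cell receptor loci, ranged over 2.80 to 47.8 FPKM of total RNA and Ptcra, the pre-T cell receptor alpha chain, over 3.69 to 59.3 FPKM. Cd3e, a signalling chain of the receptor, ranged over 396 to 830 FPKM, and Il7r, a cytokine receptor of T cell precursors, over 4.33 to 16.1 FPKM. Notch1 averaged 265 FPKM of total RNA at 0 g/kg, against 322 FPKM at 8 g/kg, including any reads of NOTCH-delta E counted as Notch1. Myc, a Notch target that drives growth, averaged 155 FPKM of total RNA at 0 g/kg, against 267 FPKM at 8 g/kg, a log2 change of -0.78 ± 0.15 (SE, limma adjusted p = 0.27). None of these genes passed in the diet comparisons. Between the T-ALLs, Rag1 total RNA was 15.3 to 47.8 FPKM in T-ALL 3, against 2.80 to 23.2 FPKM in T-ALL 2, a log2 difference of 1.68 ± 0.46 (SE, limma adjusted p = 0.40). Without T-ALL 3 at 0.4 g/kg it passed, at 2.37 ± 0.24 (adjusted p = 0.049992). Ptcra total RNA was 13.7 to 59.3 FPKM in T-ALL 3, against 3.69 to 31.0 FPKM in T-ALL 2, a log2 difference of 1.67 ± 0.65 (SE, adjusted p = 0.63).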

How the data were processed

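GFP-sorted leukaemic cells gave 16 libraries, 8 of RPF and 8 of total RNA. The deposited table gives FPKM per gene and library, which the authors made using STAR 2.5.0c, Bowtie2 2.3.4, edgeR 3.14.0 and cutadapt 1.18 with builds GRCm38 and mm10, per the submitters' processing notes. Which tool did which step, the gene length used and the gene filter are not stated there. Reads per gene were recovered from the steps of the FPKM values: 100% of 149988 values above 0 came out whole within 0.02 reads. The recovery and the fits were tested on simulated data.

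RPF and total RNA were fitted separately (limma 3.58.1, R 4.3.3). Values entered as log2(FPKM + 0.5) where the gene's mean was 1 FPKM or more, with 1 diet term over the 8 libraries, variance moderated with its trend, two-sided tests and Benjamini-Hochberg adjustment at 0.05 over all tested genes. A fold change on this scale understates that of low genes. Standard errors come from the moderated variance. Translational efficiency was log2 RPF minus log2 total RNA within a pair, the libraries of 1 diet and 1 T-ALL. The level over 8 pairs was that difference centred on each pair's median gene. T-ALL 3 was compared with T-ALL 2 with diet as a term. Wilson intervals of 95% cover counting error only, as PCR copies are not independent molecules. The share of genes at 0 was 23.5% to 44.6% in RPF and 7.64% to 15.7% in total RNA.

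The correlation of the T-ALL 3 minus T-ALL 2 difference between diets was -0.016 to 0.068 in RPF, over 0.1 for 0 of 6 pairs of diets, and -0.040 to 0.25 in total RNA, over 0.1 for 4 of 6. As the labels do not say what the T-ALL number marks and not every correlation passed 0.1, the number entered as a block only as an alternative, although samples of 1 number deviated together in part in total RNA. The other alternatives were pseudocounts of 0.1 and 1, no filter, a mean FPKM of at least 5, median centring, TMM with voom on the recovered reads, RPF libraries thinned to the shallowest, diet as a term or not, and each library or pair left out.

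The 10 genes, the gene lists and the rule for naming genes were chosen with earlier results of these data known. The rule names the 10 factors, up to 2 genes that passed per list, 12 fixed partners and targets, and the 2 nearest profiles for each of the 3 factors that varied most in total RNA (mean FPKM of at least 10). Positions and promoter sequences come from RefSeq tables for GRCm38.p6, in which 10 of 10 factors and 11387 of 12001 symbols were matched.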

Additional observations from a re-analysis of the deposited data

Results flagged for a closer look

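The gap between the outermost sample and its nearest neighbour was set against the range of each group for the 10 factors, in 50 groups of 4 libraries or 8 pairs. Gaps and ranges were taken on the log2 scale, after adding 0.5 to each FPKM, so the FPKM and ratios printed here do not give them directly. In 3 groups the gap passed Dixon's 95% critical value, and chance alone gives about 1 in 20. Tcf7 total RNA in T-ALL 3 was 304 FPKM at 0 g/kg, against 380 to 397 FPKM at the other doses. Its gap was 0.830 of the range, barely over the critical value of 0.829. Tcf3 RPF in T-ALL 2 was 71.5 FPKM at 8 g/kg, where the other 3 diets had 28.5 to 30.1 FPKM. The ratio of RPF to total RNA for Tcf12 was 0.141 in T-ALL 2 at 8 g/kg, where the other 7 pairs had 0.621 to 1.54. The Tcf3 and Tcf12 values come from the same RPF library, which is the shallowest, with 41848 reads.

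For 2 factors the RPF level moved in opposite directions in the T-ALLs, with all 3 low-valine diets above the control diet in T-ALL 3 and all 3 below it in T-ALL 2. Tcf7 averaged 0.28 above 8 g/kg on the log2 scale in T-ALL 3 and -0.33 in T-ALL 2, a difference of 0.61. Bcl11b averaged 0.37 in T-ALL 3 and -0.34 in T-ALL 2, a difference of 0.70. These differences were not tested, and each rests on 1 control library per T-ALL. Such a split arises whenever the control library is the lowest in T-ALL 3 and the highest in T-ALL 2. For Tcf7 in T-ALL 3 the margin at 0.4 g/kg was small, 196.1 FPKM on 32 reads against 194.8 FPKM on 39 reads at 8 g/kg. How often other genes split in this way was not counted. No such split was found for the other factors or in total RNA, among 20 combinations of factor and fraction.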

How the results depend on the processing

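Runx1, Bcl11b and Gata3 passed as higher in RPF than total RNA under every alternative run on that comparison and with any pair left out. Their estimates were 1.22 to 1.58, 0.773 to 1.147 and 0.781 to 1.101 on the centred log2 scale. The T-ALL block and equal RPF depth were not run on that comparison, and median centring cannot change it. The voom fit with TMM on the recovered reads set the all-gene median at 0, where the main fit had -0.26. With voom 2618 genes passed in that comparison, against 1472, and 48.3% of them were higher, against 63.5%. Lef1 then stood at -0.23 and Ets1 at -0.033, and Lef1 at -0.027 with a mean FPKM of at least 5. In this comparison left-out pairs moved Tcf12 over -0.20 to 0.28. No factor passed in any diet or T-ALL comparison under any alternative, and the lowest adjusted p of a factor was 0.15, in RPF at 0.4 against 8 g/kg. With the T-ALL number as a replicate block 0 genes passed in any diet comparison, and it changed no call; Gata3 RPF at 0 against 8 g/kg was 0.79 (limma adjusted p = 0.69), an estimate that a balanced block cannot move.

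Counts over all genes moved more, from 0 in each of these comparisons. Without a filter on low values, 47, 18 and 64 genes passed in RPF at 0, 0.4 and 0.8 against 8 g/kg and 98 in the test over all diets. With voom 5 genes passed in RPF and 2 in total RNA at 0 against 8 g/kg, 6 in RPF and 2 in total RNA over all diets, and 27 in RPF and 63 in total RNA between the T-ALLs. At equal RPF depth 1 gene passed in RPF at 0 g/kg and 1 in translational efficiency at 0.8 g/kg. For total RNA between the T-ALLs, 2 genes passed with a pseudocount of 1 and 1 without a diet term. Leaving out 1 library gave 0 to 56 genes in RPF at 0 g/kg (56 without T-ALL 3 at 0 g/kg), 0 to 2 in total RNA at 0 g/kg and 0 to 28 at 0.8 g/kg (28 without T-ALL 2 at 0.8 g/kg). It gave 0 to 8 over all diets in total RNA and 0 to 4 between the T-ALLs. None of the 10 factors was among them. Of the other listed genes, Rag1 was among them between the T-ALLs without T-ALL 3 at 0.4 g/kg, and Tal1 and Zbtb7b in RPF without the filter. The cause was not tested.

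Signs of estimates near 0 turned at 0 against 8 g/kg. Median centring, which put the all-gene RPF median there at -0.04, against 0.12 without it, gave RPF changes of -0.14 for Lef1, -0.082 for Ikzf1 and -0.036 for Ets1, and -0.18 for Bcl11b in translational efficiency. With voom, RPF changes were -0.012 for Lef1 and 0.0081 for Bcl11b. At equal RPF depth Ikzf1 RPF was -0.10, and translational efficiency was 0.021 for Lef1, 0.053 for Ets1 and -0.15 for Bcl11b. Over left-out libraries, total RNA changes kept their sign at -0.32 to -0.053 for Tcf7, 0.067 to 0.48 for Gata3, -0.13 to -0.059 for Runx1, -0.34 to -0.17 for Tcf12, -0.37 to -0.077 for Ikzf1 and 0.066 to 0.29 for Ets1, and ranged over -0.034 to 0.17 for Lef1, -0.13 to 0.056 for Bcl11b, -0.32 to 0.030 for Tcf3 and -0.085 to 0.38 for Myb. RPF changes kept their sign at 0.51 to 1.08 for Gata3, 0.031 to 0.21 for Ets1 and 0.20 to 0.78 for Myb, and ranged over -0.050 to 0.57 for Tcf7, -0.23 to 0.26 for Lef1, -0.28 to 0.27 for Bcl11b, -0.046 to 0.61 for Runx1, -0.26 to 2.23 for Tcf12, -1.33 to 0.42 for Tcf3 and -0.19 to 0.33 for Ikzf1. Translational efficiency ranged over -0.22 to 0.12 for Lef1, -0.33 to 0.39 for Bcl11b, -0.080 to 2.57 for Tcf12, -1.01 to 0.39 for Tcf3 and -0.26 to 0.14 for Ets1. RPF depth was 41848 to 205545 reads, and RPF intervals lay within a change of 1 for 5, 4 and 3 of the 10 factors at 0, 0.4 and 0.8 against 8 g/kg; the part of depth in their width was not tested.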
